A study of Mus musculus with 6 samples.

Results

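Kcnj10, Kcnj16, Atp1b1, Atp1b2, Fxyd1, Slc12a2 and Slc12a5 encode channels, pump subunits and cotransporters that clear potassium and chloride around neurons. These 7 potassium and chloride clearance genes were chosen by name, with earlier results of these data known. They were found in the deposited tables by their Ensembl identifiers, as 7 of 35275 genes. All 7 passed the filter on low counts, as did 16137 genes in all.

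Poly(A) RNA of the whole spinal cord was sequenced in bulk from 3 Sox2 cKO mice and 3 control (Ctrl) mice of the C57BL/6 strain. By the study's methods each group held 2 females and 1 male, and the column numbers do not tell their sex. Sox2 cKO mice carried mGfap-Cre and Sox2fl/fl, so that floxed Sox2 is removed from astrocytes that express a constitutive Cre transgene under the mouse Gfap promoter. For Ctrl mice the sample labels name mGfap-Cre with Sox2+/+, the series description allows mGfap-Cre or Sox2fl/fl, and the study's methods name Sox2fl/fl littermates. The labels give an age of 90 days and the series description 80 days, in both groups. The columns of the tables carry numbers only. Even numbers (2, 4 and 6) stand for Ctrl mice, odd numbers (1, 3 and 5) for Sox2 cKO mice, and values are listed in that order. The numbers could not be tied to single replicates in the labels. Libraries held between 21507911 and 28392184 counts on genes.

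Neuronal firing releases potassium into the narrow space around cells. Astrocytes take it up through the inward rectifier Kir4.1, alone or paired with Kir5.1, and through the sodium pump, whose parts include a beta subunit and a small FXYD protein that tunes its kinetics. NKCC1 carries chloride into cells and KCC2 carries it out of mature neurons, which sets the direction of chloride flow through GABA and glycine receptors.

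Levels are given in FPKM, read counts scaled to the length of the gene and the total of the library, which can be set against each other between genes. Fold changes are log2 differences of Sox2 cKO against Ctrl from edgeR's quasi-likelihood test of the counts, adjusted over all 16137 genes tested and called at an adjusted p below 0.05. Sox2, the deleted gene, was measured at 9.60, 6.94 and 13.5 FPKM in Ctrl and at 1.63, 1.35 and 1.47 FPKM in Sox2 cKO. It was lower in every Sox2 cKO library than in any Ctrl library, as the group names require.

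Among the 7 genes, Kcnj10 and Kcnj16 fell, Atp1b1 and Fxyd1 rose, and Atp1b2, Slc12a2 and Slc12a5 were not called. The 4 called genes of 7 stand against 24.6% of all tested genes called in either direction. Because the 7 were chosen with earlier results known, an excess over such shares can come from the choice. The 2 lower genes stand against 12.4% of tested genes called lower, and the 2 higher genes against 12.2% called higher. Counts scaled to library size by TMM (CPM) did not overlap between groups for 6 of the 7 genes, against 44.7% of all tested genes. DESeq2 called the same 4 genes, with 27.7% of its genes called. With the trend of counts with gene length removed from each library, Kcnj10 and Kcnj16 were called, with 13.1% of genes called, and 5 of the 7 had an unadjusted p below 0.05, as did 32.4% of all genes. Without Sox2 cKO library 1, edgeR called 0 of the 7 genes and 0.0485% of all genes, although 4 of the 7, and 30.0% of all genes, had an unadjusted p below 0.05. DESeq2 without the same library, a setting added after the data were seen, called all 4, with 17.2% of its genes called.

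Among the 1059 SOX2 binding sites of highest enrichment in chromatin of adult cerebral cortex, the part of the study's sites for which motif sequences are listed, 2 have Kcnj10 or Kcnj16 as their nearest gene. Their sequences are shown because both genes were called lower. Each is printed 5′ to 3′ as the study lists it, with the matched motif of 11 bases in capitals.
Kcnj10 site: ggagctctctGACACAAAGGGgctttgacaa
Kcnj16 site: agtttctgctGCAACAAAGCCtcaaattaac
The Kcnj10 motif, listed on the minus strand, is within chr1:172349978-172350078 of mm10, in an intron of Kcnj10 and 8.8 kb downstream of its start. The Kcnj16 motif, on the plus strand, is within chr11:110781824-110781924, between genes and 186.2 kb upstream of Kcnj16. Sites of the other genes of the 7, and the share of all genes with such a site, are not given here. The 2 sites thus do not set Kcnj10 and Kcnj16 apart from other genes. Binding at these sites was measured in another tissue than the RNA, and its part in the RNA differences was not tested. The study also reports SOX2 binding in primary astrocytes, by PCR of precipitated chromatin at marked sites in a panel of genes that includes Kcnj10.

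Kcnj10 (ENSMUSG00000044708, chr1:172341210-172374085 of mm10, plus strand) encodes Kir4.1, the main inward rectifier of astrocytes. Its Ctrl level was 178, 196 and 207 FPKM, and its Sox2 cKO level was 119, 134 and 142 FPKM. All Sox2 cKO values lay under the lowest Ctrl value, and library 1 was the lowest. The mean was 194 ± 14.3 FPKM (SD, n = 3) in Ctrl and 132 ± 11.5 FPKM (SD, n = 3) in Sox2 cKO. It changed by a log2 fold of -0.66 (standard error 0.11, edgeR adjusted p = 0.0125), a fold of 0.634. The call was lost without library 1 (log2 fold change -0.57, adjusted p = 0.0656 from edgeR) and without library 4 (-0.65, adjusted p = 0.065). Over the 15 alternative settings the log2 fold change of Kcnj10 was between -0.73 and -0.43 and its adjusted p between 3.48e-07 and 0.0853.

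Kcnj16 (ENSMUSG00000051497, chr11:110968033-111027968, plus strand) encodes Kir5.1, which forms a channel sensitive to pH together with Kir4.1. The Ctrl libraries held 15.2, 14.6 and 22.4 FPKM of it and the Sox2 cKO libraries 6.97, 7.60 and 7.82 FPKM. The groups were far apart, and Ctrl library 6 stood above the other Ctrl libraries. The mean was 17.4 ± 4.34 FPKM (SD, n = 3) in Ctrl and 7.46 ± 0.439 FPKM (SD, n = 3) in Sox2 cKO. On the log2 scale the change was -1.32 (standard error 0.16, edgeR adjusted p = 0.00872), the largest in size of the 7 genes, and a fold of 0.400. Without library 1 it was -1.26 and no longer called (adjusted p = 0.0656 from edgeR), and without library 6 it was -1.07 (adjusted p = 0.00118). Its adjusted p lay between 1.37e-12 and 0.0773 over the 15 alternatives, all with a negative fold change.

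The ratio of Kcnj16 to Kcnj10 in FPKM, the Kir5.1 message per Kir4.1 message, was 0.0851, 0.0744 and 0.108 in Ctrl and 0.0585, 0.0569 and 0.0551 in Sox2 cKO. Kcnj16 was thus lower against Kcnj10 in every Sox2 cKO library than in any Ctrl library, and the Sox2 cKO libraries lay close together. The mean log2 ratio was lower by 0.63, at -3.50 ± 0.27 (SD, n = 3) in Ctrl and -4.14 ± 0.04 (SD, n = 3) in Sox2 cKO. With 3 mice a group an exact permutation test cannot go below 0.1, and the two-sided test here gave p = 0.1, or 0.133 adjusted over 12 ratios.

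**Figure D1:**
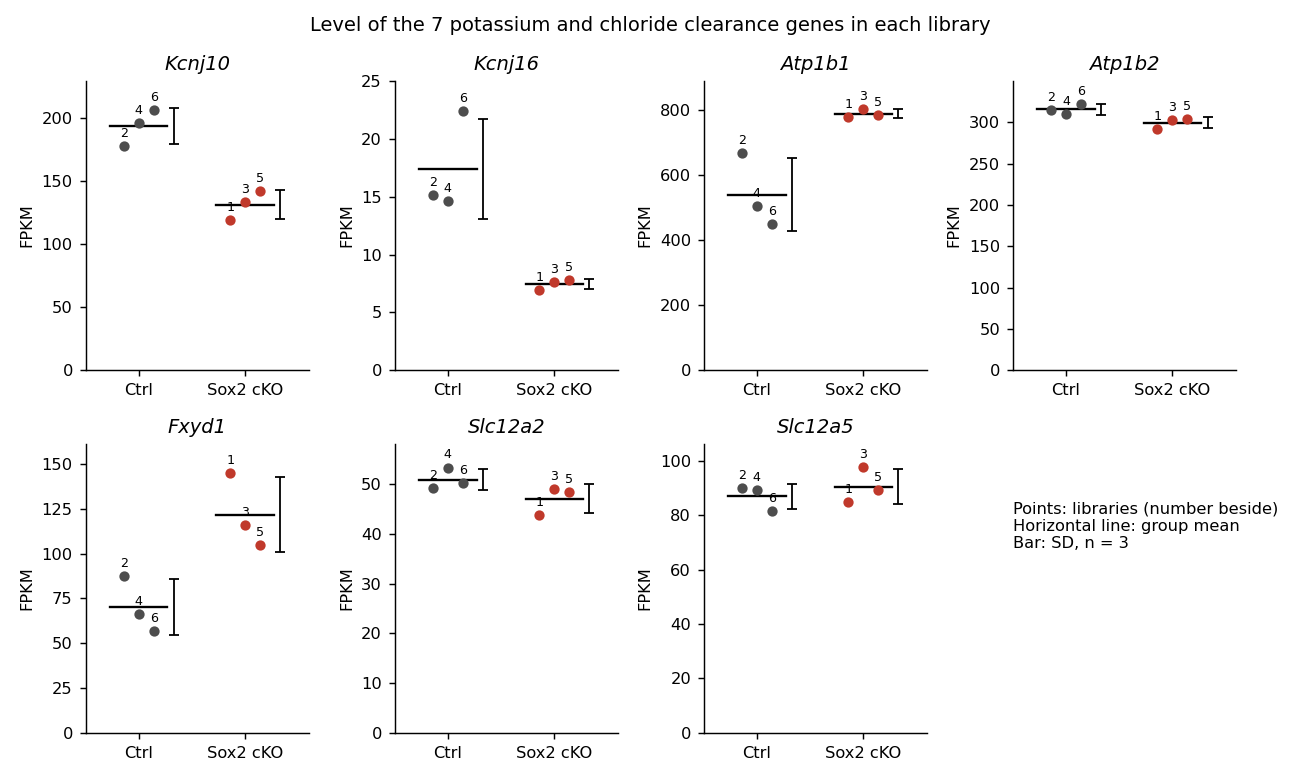
FPKM of each of the 7 genes (vertical axes from 0) in each Ctrl and Sox2 cKO library, with the library number beside each point, a line for the group mean and a bar for the SD (n = 3). Kcnj10 and Kcnj16 are lower and Atp1b1 and Fxyd1 higher in all 3 Sox2 cKO libraries, and Ctrl library 2, at 668 FPKM of Atp1b1, is the Ctrl library nearest to Sox2 cKO for Atp1b1 and Fxyd1.

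The beta subunits of the sodium pump differed. Atp1b1 (ENSMUSG00000026576, chr1:164437109-164458355, minus strand) encodes the beta1 subunit, found mainly in neurons. Ctrl libraries gave 668, 505 and 451 FPKM, and Sox2 cKO libraries gave 778, 806 and 787 FPKM. The Sox2 cKO libraries were close to each other and above all Ctrl libraries, while the Ctrl libraries were spread widely, with library 2 on top. The mean was 541 ± 113 FPKM (SD, n = 3) in Ctrl and 791 ± 14.0 FPKM (SD, n = 3) in Sox2 cKO. It changed by a log2 fold of 0.45 (standard error 0.12, edgeR adjusted p = 0.0261). The call was lost without library 1 (0.48, adjusted p = 0.0783 from edgeR), library 3 (0.44, 0.0858), library 4 (0.41, 0.108), library 5 (0.44, 0.0678) or library 6 (0.35, 0.0794), and with the length trend removed (0.35, 0.0512). Without library 2 the log2 fold change was 0.61, and the adjusted p over the 15 alternatives lay between 0.000592 and 0.109. Exons of Atp1b1 share 575 bases with Nme7 on the opposite strand, whose mean was 4.99 FPKM.

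Atp1b2 (ENSMUSG00000041329, chr11:69599736-69605942, minus strand) encodes the beta2 subunit of glia, also known as an adhesion molecule on glia. Its Ctrl level was 314, 310 and 322 FPKM, and its Sox2 cKO level was 292, 302 and 304 FPKM. The groups did not overlap, but the gap between them was about as wide as the SD of each. On the log2 scale the change was -0.17 (standard error 0.08, edgeR adjusted p = 0.143), which was not called. No alternative called it, with log2 fold changes between -0.20 and -0.08 (the smallest in size from limma) and adjusted p between 0.0594 and 0.427.

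The FPKM ratio of Atp1b2 to Atp1b1, glial against neuronal beta subunit, was 0.471, 0.615 and 0.715 in Ctrl and 0.375, 0.375 and 0.387 in Sox2 cKO. The groups did not overlap, and Ctrl library 2 was the nearest to Sox2 cKO. The mean log2 ratio was -0.76 ± 0.31 (SD, n = 3) in Ctrl and -1.40 ± 0.03 (SD, n = 3) in Sox2 cKO, a difference of -0.64 (exact two-sided permutation p = 0.1, 0.133 adjusted over 12 ratios). With the length trend removed the difference was -0.50, and the groups did not overlap.

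Fxyd1 (ENSMUSG00000036570, chr7:31051678-31057199, minus strand) encodes phospholemman, a small regulator of the pump that is abundant in heart and skeletal muscle and present in glia. The Ctrl libraries held 87.7, 66.5 and 57.1 FPKM of it and the Sox2 cKO libraries 145, 116 and 105 FPKM. All Sox2 cKO libraries were above all Ctrl libraries, with library 1 the highest of the 6. The mean was 70.4 ± 15.7 FPKM (SD, n = 3) in Ctrl and 122 ± 20.7 FPKM (SD, n = 3) in Sox2 cKO. It changed by a log2 fold of 0.69 (standard error 0.14, edgeR adjusted p = 0.0138). It was 0.57 without library 1 (adjusted p = 0.0679 from edgeR), 0.66 without library 4 (adjusted p = 0.0689) and 0.30 with the length trend removed (adjusted p = 0.0978). The adjusted p over the 15 alternatives lay between 0.000119 and 0.246, and every alternative had a positive fold change.

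Skeletal muscle markers were examined beside Fxyd1. None of the 5 (Acta1, Ckm, Myh4, Mb and Tnnt3) was called. Their summed FPKM was 8.16, 5.002 and 2.84 in Ctrl and 21.3, 2.57 and 41.3 in Sox2 cKO. Tnnt3 had the highest mean over the 6 libraries and Acta1 the highest in Ctrl, and no marker was at 0 in any library. Libraries 1 and 5 were high in these markers, and library 3 was below all Ctrl libraries. The part of muscle in the level of Fxyd1 was not tested.

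The upstream sequences of the 2 genes that rose are shown with the 6 bases ACAAAG, the core of the Kcnj10 and Kcnj16 sites above, which were searched on both strands in the 250 bases before each RefSeq start (GRCm38.p6). Of the 7 genes, 5 had an entry, and Atp1b2 and Slc12a2 are named only. Capitals mark ACAAAG or its reverse complement.
Atp1b1 upstream, minus strand: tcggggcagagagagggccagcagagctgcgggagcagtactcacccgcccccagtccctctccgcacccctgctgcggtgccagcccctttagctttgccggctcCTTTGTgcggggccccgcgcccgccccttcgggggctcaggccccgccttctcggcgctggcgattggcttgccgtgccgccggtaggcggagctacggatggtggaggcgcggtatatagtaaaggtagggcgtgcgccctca
Fxyd1 upstream, minus strand: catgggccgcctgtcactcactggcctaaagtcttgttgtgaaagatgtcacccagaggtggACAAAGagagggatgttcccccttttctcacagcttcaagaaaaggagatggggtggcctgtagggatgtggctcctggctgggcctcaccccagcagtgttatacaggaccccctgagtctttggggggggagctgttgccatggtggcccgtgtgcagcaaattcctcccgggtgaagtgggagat
These are chr1:164458356-164458605 and chr7:31054854-31055103, and each holds the motif once. The second lies inside the annotated span of Fxyd1, between exons. The windows of Kcnj10, Kcnj16 (4 starts) and Slc12a5 (2 starts) hold it 0 times. Of all 32851 promoter windows, 16.5% hold it at least once, so a match or its absence describes these letters only.

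Of the other beta and FXYD genes with a mean of at least 1 FPKM, Fxyd7, a regulator found in brain, had the largest called rise in edgeR on the deposited counts. It was measured at 54.0, 33.7 and 32.9 FPKM in Ctrl and at 92.6, 87.5 and 81.1 FPKM in Sox2 cKO, with a log2 fold change of 1.02 (adjusted p = 0.0123 from edgeR). Fxyd5 rose by 0.97 (adjusted p = 0.0261) and Fxyd6 by 0.54 (adjusted p = 0.0125) on the log2 scale in edgeR, both without overlap between groups. Not called by edgeR were Atp1b3 (log2 fold change 0.26, adjusted p = 0.0525, groups without overlap, called by DESeq2 with adjusted p = 0.0322) and Fxyd2 (0.80, with a standard error of 0.74). With the length trend removed, Fxyd5 had the largest called rise, at 0.93 (adjusted p = 0.042). Fxyd7 was then at 0.65 (adjusted p = 0.0193) and Fxyd6 at 0.34 (adjusted p = 0.0214), both still called. Atp1b3 was at 0.10 (adjusted p = 0.331) and Fxyd2 at 0.38 (adjusted p = 0.764), neither called. The FPKM ratio of Fxyd1 to Fxyd7 was lower in every Sox2 cKO library, with a log2 difference of -0.35 (exact two-sided permutation p = 0.1, 0.133 adjusted over 12 ratios).

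**Figure D2:**
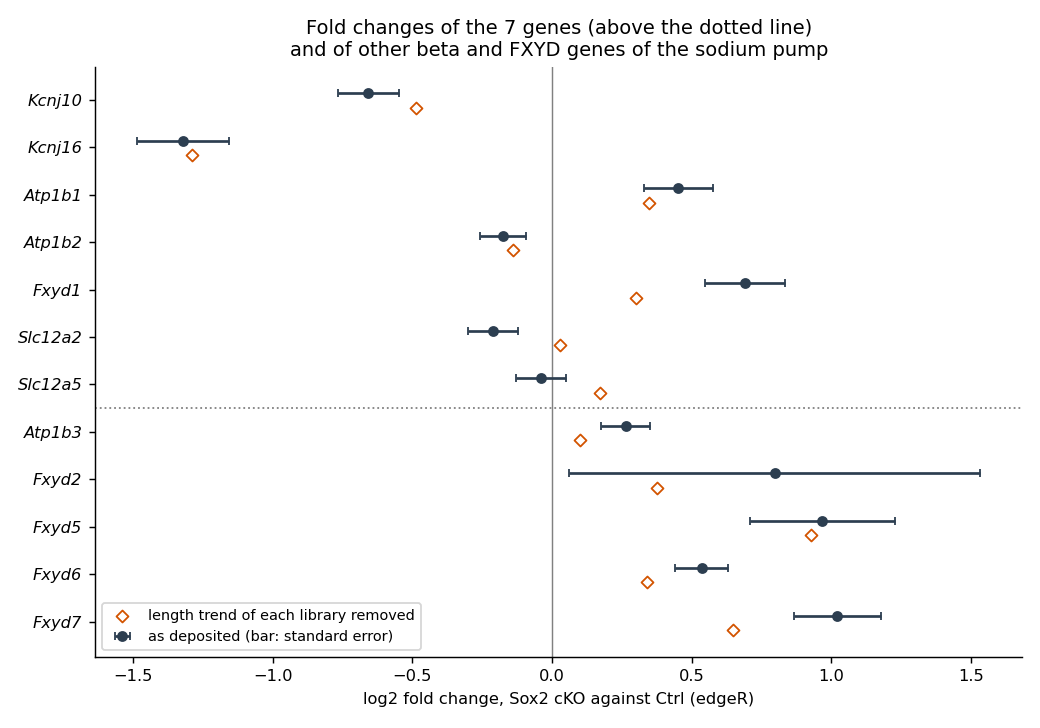
log2 fold change of Sox2 cKO against Ctrl (horizontal axis) for the 7 genes, above the dotted line, and for other beta and FXYD genes of the sodium pump, from edgeR on the deposited counts (circles, bars for the standard error) and with the length trend of each library removed (diamonds). Fxyd1 moves from 0.69 to 0.30, whereas Kcnj16 moves from -1.32 to -1.29.

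Slc12a2 (ENSMUSG00000024597, on chromosome 18) encodes NKCC1, which brings sodium, potassium and chloride into glia and other cells. Ctrl libraries gave 49.2, 53.3 and 50.2 FPKM, and Sox2 cKO libraries gave 43.8, 49.0 and 48.4 FPKM. The highest Sox2 cKO library was just below the lowest Ctrl library, and library 1 was the lowest of the 6. On the log2 scale the change was -0.21 (standard error 0.09, edgeR adjusted p = 0.109), which was not called. It was called without library 2 (-0.26, adjusted p = 0.0347 from edgeR) and changed sign with the length trend removed (0.03, adjusted p = 0.769). With limma it was -0.11, and its adjusted p lay between 0.0347 and 0.769 over the 15 alternatives.

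Slc12a5 (ENSMUSG00000017740, chr2:164960802-164999731, plus strand) encodes KCC2, the chloride exporter of neurons. Its Ctrl level was 90.1, 89.1 and 81.7 FPKM, and its Sox2 cKO level was 84.8, 97.6 and 89.2 FPKM. The groups overlapped, with the lowest value in a Ctrl library and the highest in a Sox2 cKO library. It changed by a log2 fold of -0.04 (standard error 0.09, edgeR adjusted p = 0.767). Its sign was negative in 8 alternatives and positive in 7, and none called it, with adjusted p between 0.14 and 0.972.

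The FPKM ratio of Slc12a2 to Slc12a5, chloride importer against neuronal exporter, was 0.546, 0.599 and 0.615 in Ctrl and 0.516, 0.502 and 0.543 in Sox2 cKO. The groups did not overlap, although libraries 2 and 5 nearly met. The log2 difference was -0.17 (exact two-sided permutation p = 0.1, 0.133 adjusted over 12 ratios), and with the length trend removed it was -0.14 with overlapping groups.

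To set the glial genes against an astrocyte gene, each was divided by Aldh1l1, a general astrocyte marker that itself fell by 0.37 on the log2 scale (adjusted p = 0.0266 from edgeR, and 0.051 with the length trend removed). The FPKM ratio of Kcnj10 to Aldh1l1 was 10.4, 9.73 and 10.5 in Ctrl and 7.66, 9.05 and 8.36 in Sox2 cKO. All Sox2 cKO libraries were lower, with a log2 difference of -0.29, or -0.19 with overlapping groups once the length trend was removed. Kcnj16 to Aldh1l1 was lower by a log2 difference of -0.93, and -0.97 with the length trend removed, without overlap in either. Fxyd1 to Aldh1l1 was higher by 1.07 without overlap, and by 0.60 with overlap after removal of the length trend. Atp1b2 and Slc12a2 overlapped between groups, with log2 differences of 0.19 and 0.15, the latter 0.0785 without library 3. With the length trend removed Atp1b2 still overlapped, at 0.16, whereas Slc12a2 was higher in every Sox2 cKO library, at 0.33.

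Neuronal genes were divided by Snap25, a synaptic gene that edgeR did not call (log2 fold change 0.35, adjusted p = 0.0619). Its groups did not overlap, and it was called higher by DESeq2 (adjusted p = 0.0236) and with the length trend removed (log2 fold change 0.48, adjusted p = 0.0401). The FPKM ratio of Atp1b1 to Snap25 was 1.27, 1.33 and 1.25 in Ctrl and 1.38, 1.34 and 1.42 in Sox2 cKO. The difference was small, 0.10 on the log2 scale, and it turned to -0.14 with the length trend removed. Snap25 had the largest edgeR rise of the 14 neuron markers read below. Their median log2 fold change was -0.03, with 9 of the 14 negative, so this ratio sets Atp1b1 against Snap25 only and not against neuronal RNA in general. The ratio of Slc12a5 to Snap25 was 0.172, 0.235 and 0.227 in Ctrl and 0.1498, 0.163 and 0.161 in Sox2 cKO, lower in each Sox2 cKO library by a log2 difference of -0.41. In edgeR Slc12a5 itself had a log2 fold change of -0.04, so that this difference follows mainly the divisor. In all, groups did not overlap for 9 of the 12 ratios, and no ratio had an adjusted p below 0.133 (exact permutation).

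**Figure D3:**
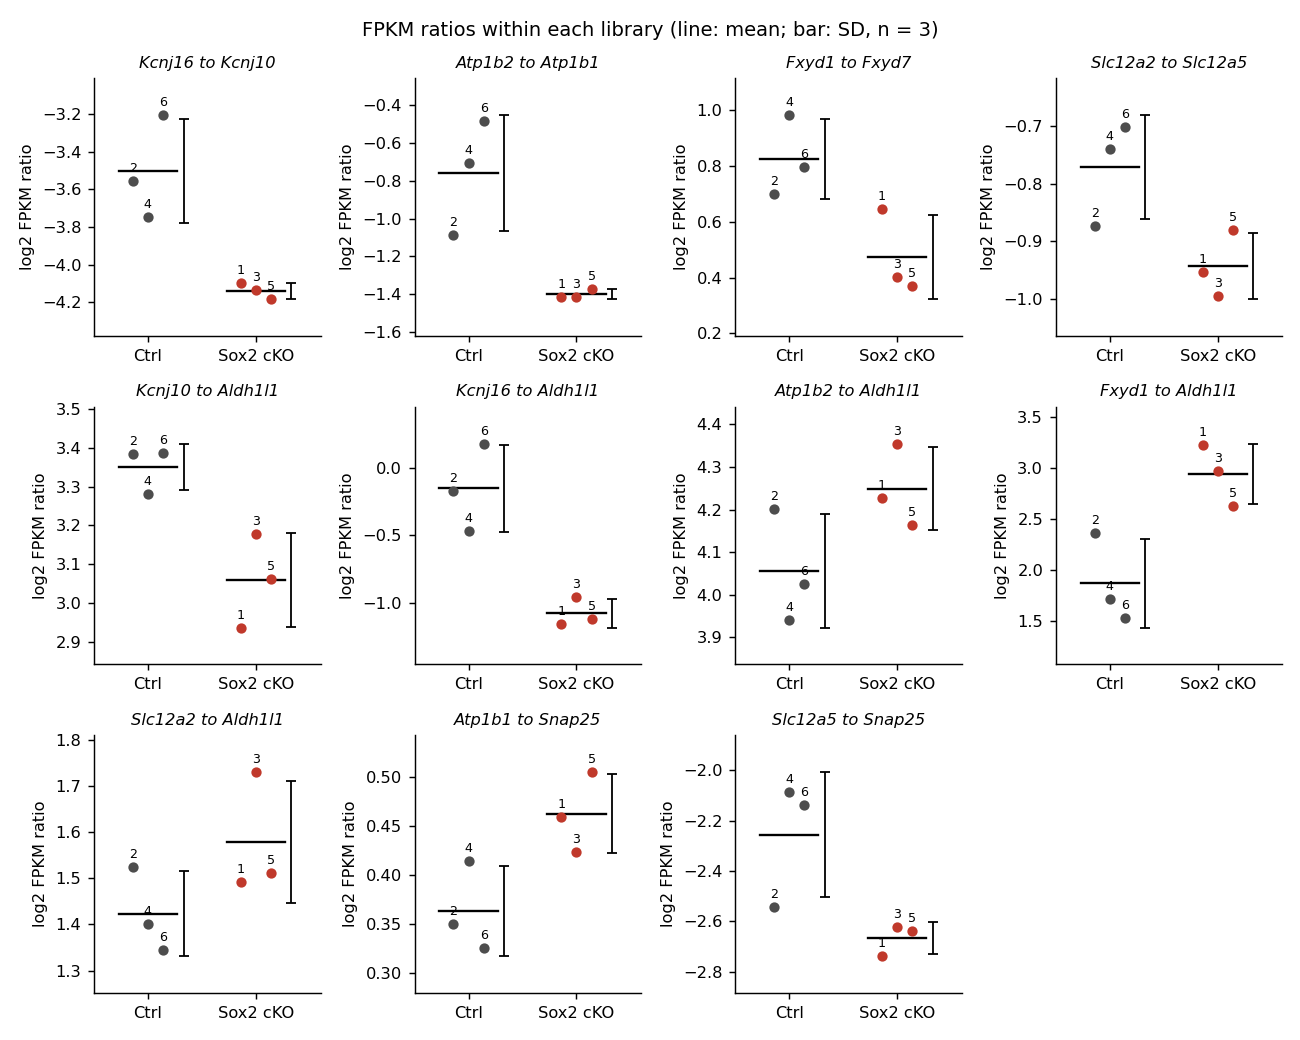
log2 FPKM ratios of 11 gene pairs (vertical axes, each with its own range) in each Ctrl and Sox2 cKO library, with a line for the mean and a bar for the SD (n = 3). Atp1b2 to Atp1b1 has means of -0.76 in Ctrl and -1.40 in Sox2 cKO, while Atp1b2 to Aldh1l1 overlaps between groups.

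Fold changes varied with gene length. Length here is the number of bases by which FPKM was scaled, as implied by counts and FPKM, and not the span on the chromosome. All tested genes were sorted by length and split into 5 nearly equal groups. Of the genes in the shortest group, 30.4% were called higher and 1.73% lower, and Fxyd1, with 620 bases, lies there. Atp1b1, with 2422 bases, lies in the next group, with 15.3% called higher and 3.32% lower. Kcnj16 and Atp1b2, with 3701 and 3751 bases, lie in a group with 14.2% called lower and 5.02% higher. Kcnj10, Slc12a5 and Slc12a2, with 5407, 6024 and 6520 bases, lie in the longest group, with 36.0% called lower and 1.74% higher. At the length of Fxyd1 the length curve was above the average library by 0.30, 0.17 and 0.20 on the log2 scale in libraries 1, 3 and 5, and at -0.07, -0.27 and -0.18 in libraries 2, 4 and 6. Ctrl library 2 was thus the Ctrl library with the flattest curve at that length. An RNA integrity number above 6.8 is stated for both groups in the labels, and above 8.0 in the study's methods, with no value by library, so the part of RNA quality was not tested.

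**Figure D4:**
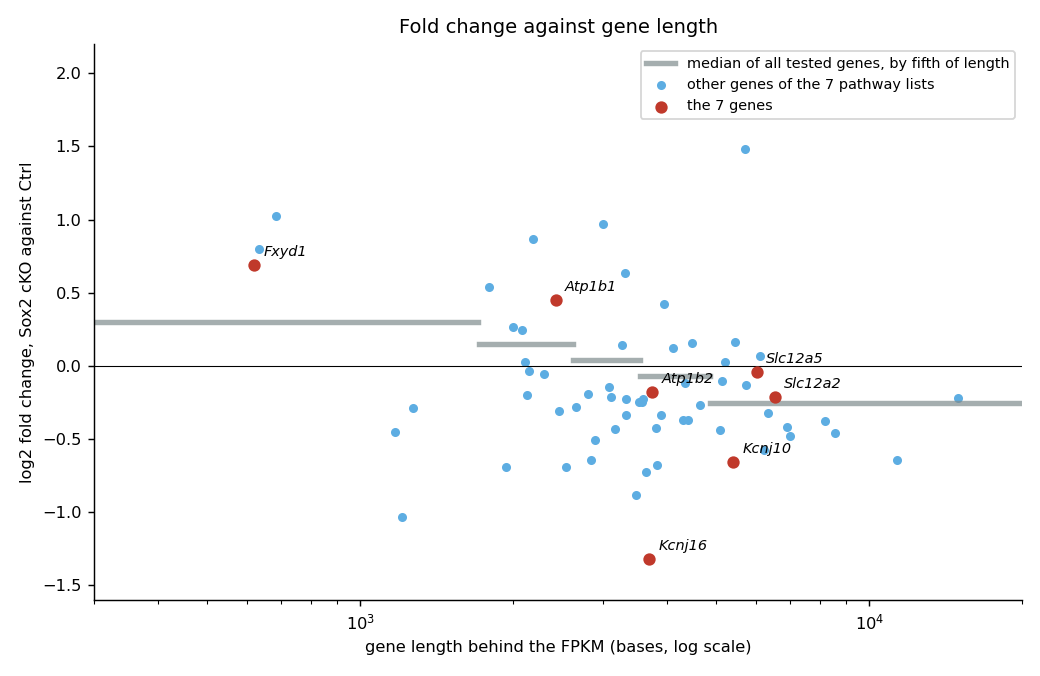
log2 fold change of Sox2 cKO against Ctrl (vertical axis) against gene length in bases (horizontal axis, log scale) for the 7 genes and for other tested genes of the 7 pathway lists, with bars at the median of all tested genes in each of 5 length groups. The medians run from 0.30 in the shortest group to -0.25 in the longest, Kcnj16 lies far below its group's bar, and Slc12a2 lies near its own.

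The 7 lists of related genes, chosen with earlier results of these data known and holding 64 genes beyond the 7, were read beside them. Of the 58 tested, 21 were called lower and 5 higher, 44.8% called against 24.6% of all tested genes, with a median log2 fold change of -0.24 against 0.02. With the length trend removed, 13 were called lower and 6 higher, against 13.1% of all tested genes called. Among 12 tested inward rectifiers, 3 were called lower and 1 higher. Kcnj8, a channel of pericytes, rose by 0.87 on the log2 scale, while Kcnj6, of neurons, had a log2 fold change of -0.72 and Kcnj11 of -0.45. Without the length trend, Kcnj6 alone of these 3 lost its call, at nearly the same log2 fold change (-0.70, adjusted p = 0.0511). Of the 6 other cotransporters, 2 were lower, Slc12a4 (KCC1, -0.67) and Slc12a9 (-0.34), both also called with the length trend removed.

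The kinases that control cotransporters numbered 6, and 3 were called lower, Wnk1 (log2 fold change -0.64), Wnk3 (-0.46) and Wnk2 (-0.42). All 3 are long genes, and none was called with the length trend removed, where their log2 fold changes were -0.23, -0.13 and -0.15. Of 11 tested chloride and volume channels of glia, 4 were lower and 1 higher, with Ttyh2 at -0.88, Lrrc8b at -0.64 and Lrrc8c at -0.48. Once the trend was removed 2 were lower, and Lrrc8c was not called (-0.21, adjusted p = 0.135). Of 7 two-pore and leak potassium channels, 4 were lower and none higher, with Kcnk9 at -1.03, Kcnk12 at -0.69 and Kcnk10 at -0.69. These 3 remained called with the length trend removed. Of 7 partners of Kir4.1 at the endfoot, 3 were lower, the water channel Aqp4 (-0.44), Dag1 (-0.37) and Dtna (-0.32), of which Dtna was not called after removal of the trend (-0.09, adjusted p = 0.311).

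Markers of cell types were read as whole lists. Of 12 astrocyte markers, 6 were called lower and 1 higher, S100b, named after its values were seen, and 3 were lower and none higher with the length trend removed. Their summed FPKM was 3402, 3305 and 3624 in Ctrl and 2955, 2869 and 2969 in Sox2 cKO, below every Ctrl library. This drop was about that of Gfap alone, whose mean was 1032 FPKM in Ctrl and 513 FPKM in Sox2 cKO. Without Gfap, the sums of the other astrocyte markers overlapped between groups. S100b went the other way, with a mean of 376 FPKM in Ctrl and 654 FPKM in Sox2 cKO. Glul, glutamine synthetase, had the highest mean FPKM over the 6 libraries, and Gfap the highest in Ctrl (1032 against 848). In bulk tissue, fewer astrocytes and less RNA per astrocyte cannot be told apart. Of 14 neuron markers, 1 was lower and 1 higher, and 0 and 1 with the length trend removed, with a summed FPKM between 2925 and 3098 in Ctrl and between 3129 and 3170 in Sox2 cKO and Nefm as the most abundant. All 5 tested oligodendrocyte precursor markers were lower, and 3 of them with the length trend removed, with sums of 47.6, 54.2 and 55.2 FPKM in Ctrl and 26.4, 34.4 and 37.2 FPKM in Sox2 cKO, and with Ptprz1 as the most abundant.

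Other lists set single libraries apart, and each is given with the gene that led it in mean FPKM over the 6 libraries. Endothelial markers, led by Cldn5 but in Ctrl by Slco1a4, summed to 79.1 FPKM in library 1 and to between 44.8 and 48.7 FPKM in the other 5. Microglia markers, led by C1qa, were also highest in library 1, at 166 FPKM. Pericyte and smooth muscle markers, led by Rgs5, summed to 39.1, 37.4 and 38.4 FPKM in Ctrl and 56.1, 42.2 and 45.8 FPKM in Sox2 cKO, higher in every Sox2 cKO library. Only 1 of the 7 was called higher, Kcnj8, which is also the inward rectifier counted as higher above. Meningeal fibroblast markers, led by Dcn, summed to 31.4 FPKM in Ctrl library 6 and to at least 67.7 FPKM in the others. Schwann cell markers, led by Pmp22, were lowest in the same library, at 61.7 FPKM, and red blood cell markers, led by Hbb-bs, highest, at 212 FPKM. The sums of oligodendrocyte markers (led by Mbp), ependymal markers (Foxj1), dorsal root ganglion markers (Prph) and choroid plexus markers (Ttr, and Kl in Sox2 cKO) overlapped between groups, although Foxj1 itself was called lower (log2 fold change -0.35, adjusted p = 0.0246 from edgeR) without overlap. Of all markers measured, Trpv1 alone was at 0 in a library, Ctrl library 2. The part of these cell types in the values of the 7 genes was not tested.

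The order of levels changed at 1 place. In Ctrl, mean FPKM ran from Atp1b1 (541) through Atp1b2 (316), Kcnj10 (194), Slc12a5 (86.9), Fxyd1 (70.4) and Slc12a2 (50.9) to Kcnj16 (17.4). Slc12a5 and Fxyd1 overlapped, and the other neighbours did not. In Sox2 cKO, Fxyd1 (122) stood above Slc12a5 (90.5) and overlapped with Kcnj10 (132). Within Ctrl, the SD was 25.0% of the mean for Kcnj16, 22.3% for Fxyd1 and 20.9% for Atp1b1, and 1.99% for Atp1b2.

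For each gene, the 3 genes nearest in profile among 13258 tested genes with a mean of at least 1 FPKM were found by the root mean square difference of centred log2 CPM over the 6 libraries. Kcnj10 was nearest to Tmem229a (0.0274), Ncam1 (0.0327) and Ntrk2 (0.0404). Kcnj16 had no gene as near, with Lrig1 (0.129), Flnc (0.164) and Sox6 (0.167). Atp1b1 was nearest to Crls1, Rtn1 and Ccnh, and Fxyd1 to Col16a1, Tmem14c and Ly6e. Atp1b2 was nearest to Mapk1ip1l, Zfp251 and Poglut1, Slc12a2 to Dpp6, Gpr176 and Pbrm1, and Slc12a5 to Snw1, Fam32a and Pnpla8.

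**Figure D5:**
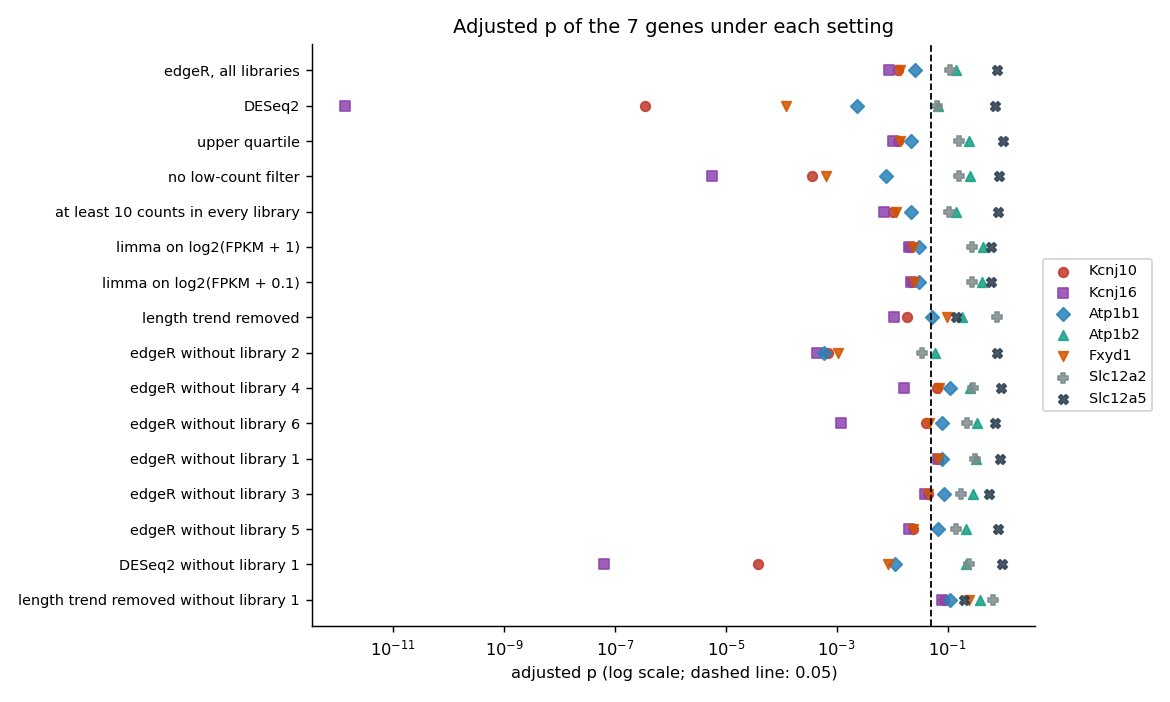
Adjusted p (horizontal axis, log scale, dashed line at 0.05) of the 7 genes under each setting of the analysis (vertical axis). With library 1 left out, edgeR places all 7 genes to the right of the line, and DESeq2 without the same library keeps 4 to its left.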

How the data were processed

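Reads were mapped by the authors to mm10 using STAR 2.5, and reads per gene were obtained with HTSeq 0.6.1. The authors deposited these counts without normalization, and FPKM values, which the authors made from the counts with gene lengths and library totals. Whether counting used the strand is not given in the sources used here. Columns were grouped by their numbers, which the study gives to mice of each group on a protein blot. Group means of normalized counts of 1999 genes listed by the study matched under these groups within a relative difference of 0.0001, and 0 matched with groups exchanged. Members and lists were chosen with earlier results of these data known. Names and positions came from GENCODE M21 (GRCm38, as mm10). The main test used edgeR 4.0.16 in R 4.3.3 (filterByExpr, TMM, quasi-likelihood, Benjamini-Hochberg at 0.05). The common biological coefficient of variation was 0.119, and each standard error is the fold change over the root of the F statistic. The length trend was a lowess curve (span 0.3) in each library on log2 length. It was fitted to log2 CPM after subtraction of each gene's mean over the libraries. Ratios used FPKM and the exact two-sided permutation test. Alternatives were DESeq2 1.42.0, upper quartile scaling, no low-count filter, at least 10 counts in every library, limma 3.58.1 on log2(FPKM + 1) and log2(FPKM + 0.1) where mean FPKM reached 0.5, removal of the length trend, and leaving out each of 6 libraries. DESeq2 without library 1, and removal of the length trend without library 1, were chosen once the data had been seen. All main fits were tried on simulated data. Of the 12 ratios 1, and some genes, are not reported here. Named genes were otherwise the 7 genes, Sox2, genes of the ratios, pump genes with a mean of at least 1 FPKM, the 3 called genes with the largest change in each other pathway list, the most abundant gene of each marker list (that of a single group, where it differs, was added later) and the nearest profiles. No library was a copy of another (chi-square per degree of freedom between 7.17 and 90.1 over 15 pairs).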

Additional observations from a re-analysis of the deposited data

How the results depend on the processing

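edgeR called 3970 genes, 2109 with the length trend removed, 2342 with DESeq2 without library 1 and 10 with the length trend removed without library 1, and 8, 6119, 1359, 26, 2665 and 1082 without libraries 1 to 6 in turn, from 8 to 6119. Of the 7 genes, the number called lower was 0 with the length trend removed without library 1, and between 0 and 3 when 1 library was left out. The number called higher was 0 with the length trend removed, with or without library 1, and between 0 and 2 when 1 library was left out. Without library 1, edgeR gave 4 of the 7 genes and 30.0% of all genes an unadjusted p below 0.05, and DESeq2 called 4 of the 7 and 17.2% of its genes. With the length trend removed, 5 of the 7 and 32.4% of all genes had an unadjusted p below 0.05. DESeq2, upper quartile scaling, limma and the other filters on low counts each called Kcnj10, Kcnj16, Atp1b1 and Fxyd1. The log2 fold change of Slc12a2 turned to 0.030 with the length trend removed and to 0.054 when library 1 was also left out. That of Slc12a5 turned to 0.0047 with upper quartile scaling, 0.056 and 0.057 with limma at pseudocounts of 1 and 0.1, 0.17 with the length trend removed, 0.011 with DESeq2 without library 1 and 0.195 with the length trend removed without library 1, and was between -0.097 and 0.022 when 1 library was left out. The log2 ratio of Atp1b1 to Snap25 turned to -0.14 with the length trend removed. The cause was not tested.

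limma on log2(FPKM + 0.1) moved the median log2 fold change of all genes to 0.11 from 0.02, and called 896 genes lower and 2614 higher. At a pseudocount of 1 the numbers were 915 and 2670, against 2008 and 1962 with edgeR. No paired analysis was possible because no source used here pairs single Sox2 cKO and Ctrl mice, and the deposited columns carry no replicate numbers. With 3 mice a group, counts of calls moved most with 1 library, and the ratios cannot reach an exact p below 0.1.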
